A study of Rattus norvegicus with 9 samples.

Results

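The genes of the cyclin-dependent kinase (CDK) inhibitors were followed in the livers of 9 male Wistar rats, 5 young animals aged 6 months (young 1 to 5) and 4 old animals aged 24 months (old 1 to 4). Members were the rows of the authors' count table named CDKN1A, CDKN1B, CDKN1C, CDKN2A, CDKN2B, CDKN2C and CDKN2D, 7 of its 23479 gene symbols, which are written below as rat symbols (Cdkn1a and so on). The labels name no treatment, each library came from a different animal per the series design, and the whole liver was sequenced as poly(A) RNA. Age was therefore the only labelled difference between the groups.

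CDK inhibitors are small proteins that hold cyclin-dependent kinases inactive and so keep the retinoblastoma protein in the form that blocks entry into S phase. The Cip/Kip inhibitors p21 (Cdkn1a), p27 (Cdkn1b) and p57 (Cdkn1c) bind complexes of several cyclins and CDKs, whereas the Ink4 inhibitors p16 (Cdkn2a), p15 (Cdkn2b), p18 (Cdkn2c) and p19 (Cdkn2d) bind Cdk4 and Cdk6 alone. Several of them, p16 and p21 above all, are used as markers of senescent cells, and in the liver p21 and p27 are known for restraining hepatocyte division.

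None of the 6 inhibitor genes that could be tested passed the threshold between the ages, although each was higher in the mean of the old livers, as were 51.2% of all genes tested. Cdkn1c and Cdkn2c had the largest, at 2.28-fold and 2.09-fold. Cdkn1a was 1.77-fold higher in the old mean but varied so widely among the young livers that the groups overlapped. Cdkn1b, Cdkn2b and Cdkn2d lay within 1.18-fold of equal, and Cdkn2a was present at 0 to 4 counts per library. In edgeR's quasi-likelihood test across 12778 genes, 1.00% of genes had an adjusted p under 0.05 (128 genes, 84 higher and 44 lower in old livers, or 72 higher and 208 lower with library totals as the only scaling). Against this background 0 of the 6 tested members were called by edgeR, 0 by DESeq2, which called 5.13% of all genes, and 0 by limma-voom, which called 0.532%. Of the 6, 2 had an unadjusted edgeR p under 0.05, against 15.9% of all genes tested. The median log2 fold change of the 6 members was 0.53 and that of all genes tested was 0.01. Each of the 6 had at least 13 counts in every library, so none passed the filter on low counts through the old group alone.

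**Figure D1:**
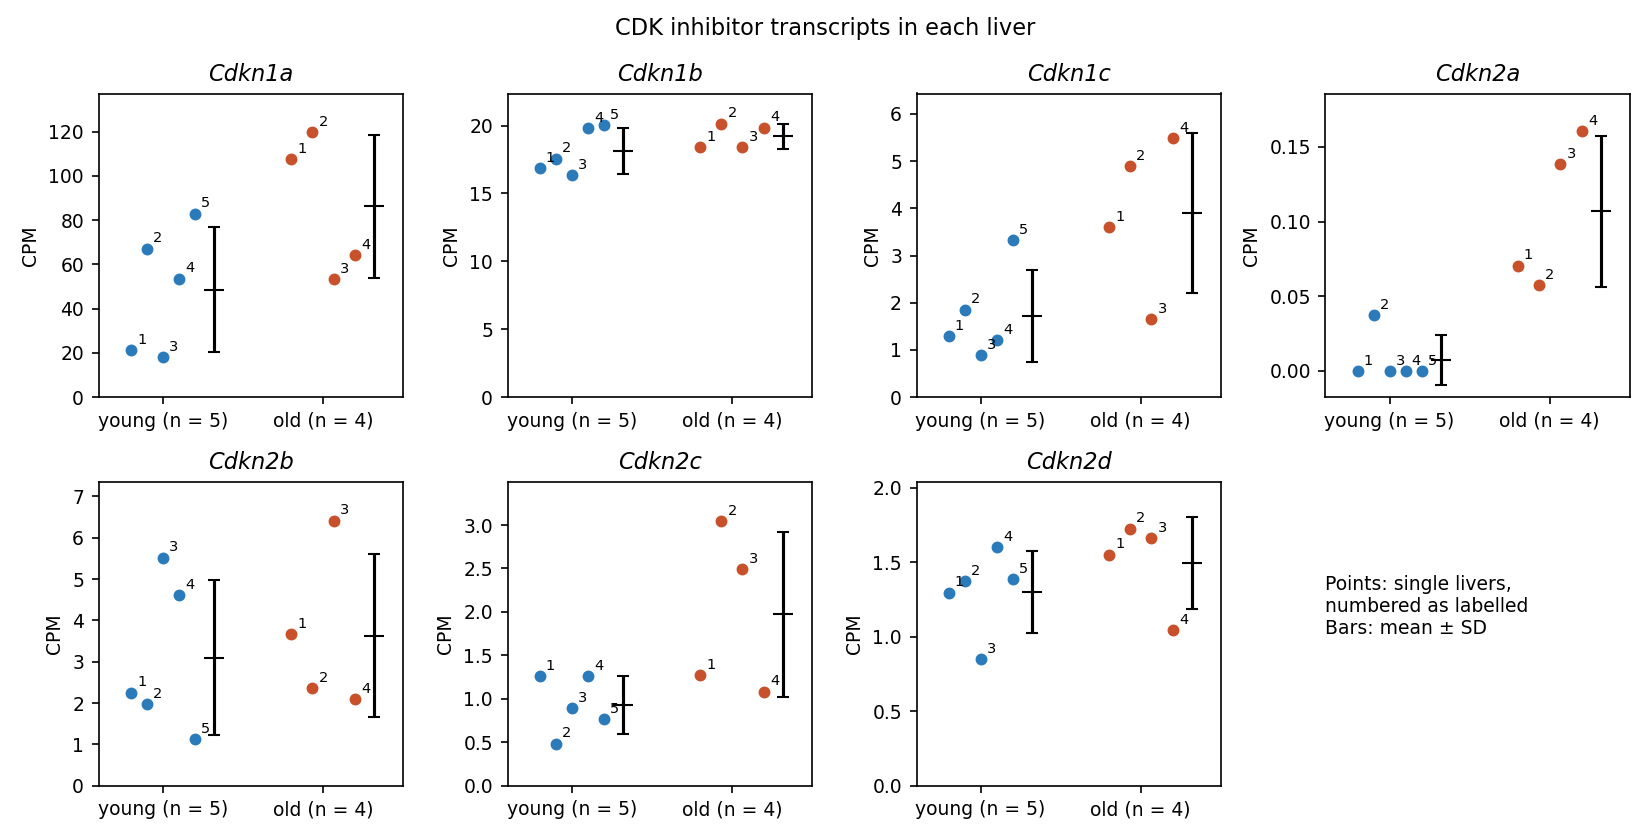
CPM (reads of a gene relative to library size, y axis) of the 7 CDK inhibitor genes in each of 5 young and 4 old livers, with the mean and SD of each group as bars. Young 1 and young 3 were the 2 lowest livers for Cdkn1a, at 21.2 and 18.2 CPM, while all Cdkn1b values lay between 16.4 and 20.1 CPM.

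Library totals were 18942191 to 25215805 counts in young and 18586798 to 32882704 counts in old livers, and every value of old 1 was an even number, with no odd value among all genes. The limit that 0 counts allow, 3 counts, equalled 0.106 to 0.173 CPM, and covers counting error only. The value of 0.106 CPM is that of old 1, where 1 step is 2 counts, so 3 counts understate the limit there. The 8 hepatocyte markers summed to 169894 to 191857 CPM at 6 months and 204649 to 317974 CPM at 24 months, so the labelled tissue held its defining transcripts. Of these 8, edgeR called 1, Alb, which averaged 106266 CPM at 6 months and 184595 CPM at 24 months. Log2 fold changes were positive for 6 of the 8, and -0.03 for Cps1 and -0.12 for Hnf4a. The 17 heart muscle markers summed to 106 to 131 CPM in young 2 to 5, to 13.4 CPM in young 1 and to 3.61 to 7.20 CPM in old livers; Myh6, Myh7, Myl2, Myl3, Actc1, Myl7, Nppa, Nppb and Ckm had 0 counts in every old library. The 12 T and natural killer cell markers summed to 8.96 to 11.7 CPM at 6 months and 14.9 to 51.1 CPM at 24 months, and none was at 0 in all libraries. The 8 erythroid markers, which include the globin genes, summed to 77.7 to 437 CPM at 6 months and 567 to 2354 CPM at 24 months, again without overlap; of 5 tested, 3 (Alas2, Hbb and HBA2) were called higher by edgeR, and the median log2 fold change was 2.85. Reads of near-identical globin genes may have been split between them. The part of these marker groups in the values of the inhibitor genes was not tested. In whole liver, fewer cells of a type and less RNA per cell cannot be told apart.

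Cdkn1a encodes p21, the best known transcriptional target of p53. Its level was 21.2, 67.1, 18.2, 53.6 and 82.9 CPM in young 1 to 5 and 107.7, 120, 53.3 and 64.1 CPM in old 1 to 4. Only old 1 and old 2 lay above all young livers, and old 3 lay just under the young median of 53.6 CPM. Means were 48.6 ± 28.4 CPM (SD, n = 5) and 86.2 ± 32.4 CPM (SD, n = 4). The log2 fold change was 0.83 ± 0.47 (SE; 95% interval -0.22 to 1.88), with an adjusted p of 0.422 in edgeR's test and an exact two-sided permutation p of 0.143. The interval spans 0.857-fold to 3.67-fold, so neither a lower nor a higher level at the older age could be told from these animals. With young 1 as the only young library, which leaves out the 4 young livers high in heart muscle transcripts, the log2 fold change was 2.03 (edgeR adjusted p = 0.997). Young 1 was among the 2 lowest livers for this gene, and that fit takes its spread from the old group.

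Cdkn1b encodes p27, an inhibitor whose amount is known to be set mainly by degradation through the Skp2 ubiquitin ligase. Its level was 16.8, 17.6, 16.4, 19.8 and 20.0 CPM in young 1 to 5 and 18.4, 20.1, 18.4 and 19.9 CPM in old 1 to 4. The highest of the 9 livers was 1.23 times the lowest, and the groups overlapped. The log2 fold change was 0.08 ± 0.09 (95% interval -0.12 to 0.29, edgeR adjusted p = 0.677), which bounds the difference to between 0.920-fold and 1.22-fold.

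The windows around the annotated starts of Cdkn1a, which varied widely between livers of 1 age, and Cdkn1b, which varied little, are shown for comparison. They run from 250 bases before to 50 bases after the start, in RefSeq's GRCr8 assembly, 5′ to 3′ along the gene, and were available for 6 of the 7 members. Capitals mark GGGCGG (the GC box), CCAAT and TGACGTCA on either strand. TATAAA and CACGTG were also searched and occurred in none of the 6 windows, and no marked matches overlapped. Among all 33469 windows, 33.1% held GGGCGG, 37.5% CCAAT, 14.2% TATAAA, 6.42% CACGTG and 1.83% TGACGTCA. The motifs were chosen with the sequences in view, and a match is a string of letters, not a measured binding site.
Cdkn1a, chr20:7150682-7150981, plus strand: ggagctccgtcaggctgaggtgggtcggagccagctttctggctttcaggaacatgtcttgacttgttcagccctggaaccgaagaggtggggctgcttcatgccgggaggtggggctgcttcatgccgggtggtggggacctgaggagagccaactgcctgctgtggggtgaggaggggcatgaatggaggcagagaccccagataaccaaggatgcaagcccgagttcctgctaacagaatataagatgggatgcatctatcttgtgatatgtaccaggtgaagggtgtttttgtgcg
Cdkn1b, chr4:169491254-169491553, plus strand: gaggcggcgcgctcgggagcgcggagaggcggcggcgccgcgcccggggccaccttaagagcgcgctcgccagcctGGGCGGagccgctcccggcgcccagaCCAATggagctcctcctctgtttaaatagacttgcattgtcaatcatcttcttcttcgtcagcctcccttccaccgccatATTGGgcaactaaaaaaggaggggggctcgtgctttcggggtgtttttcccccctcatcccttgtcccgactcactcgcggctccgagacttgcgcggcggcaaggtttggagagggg
The Cdkn1a window held 7 CpG dinucleotides, equal to the median of all windows, and none of the 5 motifs. The Cdkn1b window held 30, a number that 90.7% of windows did not exceed, with 1 GC box and 2 CCAAT matches. The starts used lie 112 bases (Cdkn1a) and 231 bases (Cdkn1b) inside the annotated gene spans. The sequence before an upstream start is therefore covered only in part. Binding sites of p53 were not among the motifs searched.

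Cdkn1c encodes p57, from an imprinted gene that is active in differentiated and quiescent cells. Its level was 1.30, 1.86, 0.896, 1.21 and 3.33 CPM in young 1 to 5 and 3.60, 4.89, 1.66 and 5.49 CPM in old 1 to 4. Old 1, old 2 and old 4 lay above all young livers, while old 3 lay below young 2 and young 5. Means were 1.72 ± 0.967 and 3.91 ± 1.70 CPM, from 19 to 65 counts per young and 36 to 137 counts per old library. The log2 fold change was 1.19 ± 0.42 (95% interval 0.25 to 2.13, unadjusted p = 0.0182), and edgeR's adjusted p of 0.215 did not pass. The adjusted p was 0.0962 by DESeq2, and the exact two-sided permutation p was 0.0635.

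Within the Ink4 family, Cdkn2a lay at or under the floor in most libraries. This gene encodes p16Ink4a and, through another first exon and reading frame, the p53 activator Arf, and counts per symbol do not separate these products. It had 0 counts in young 1, 3, 4 and 5, 1 count in young 2, and 2, 1, 3 and 4 counts in old 1 to 4. It lay under 3 counts in 7 of the 9 libraries, all young ones among them, and reached 3 counts only in old 3 and old 4. It was the only member under 3 counts in any library. Over each group this was 1 count at the younger age and 10 counts at the older, a ratio of 12.4 on the scaled library sizes with a 95% counting interval of 1.76 to 538 (exact conditional binomial), which compares these libraries and not the ages.

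Cdkn2a did not pass the low-count filter. In the fit with no filter its unadjusted p was 0.00603 and edgeR's adjusted p was 0.165, where 0.636% of 18071 genes were called and 13.3% had an unadjusted p under 0.05. On the CPM scale the groups did not overlap, as was so, with old above young, for 2.89% of those genes, and the exact two-sided permutation p was 0.00794, the smallest that groups of 5 and 4 can give. The order rests on single reads: young 2 and old 2 each held 1 count, at 0.0371 and 0.0575 CPM, and differ only by library size. Because the counts of old 1 were all even, its 2 counts are 1 step of that library. With the counts of old 1 halved, the ratio of the group sums was 11.2 (95% counting interval 1.55 to 489).

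Cdkn2b encodes p15, which is known as a target of TGF-beta signalling. Its level was 2.25, 1.97, 5.52, 4.62 and 1.13 CPM in young 1 to 5 and 3.67, 2.36, 6.41 and 2.09 CPM in old 1 to 4. High and low livers occurred at both ages, and 1 old liver, old 3, lay above all young ones. The log2 fold change was 0.23 ± 0.48 (95% interval -0.84 to 1.31, edgeR adjusted p = 0.833), and it was -0.18 without old 3. The 12 T and natural killer cell, 8 neutrophil and monocyte and 7 macrophage markers were also highest in old 3. They summed to 51.1, 196 and 589 CPM. Young 3 and young 4 had the next highest Cdkn2b levels and the highest stellate and bile duct marker sums. The 8 stellate markers summed to 458 and 265 CPM there and to 209 CPM in old 3. The 6 bile duct markers summed to 60.8 and 59.2 CPM there and to 41.9 CPM in old 3. The part of these marker groups in the Cdkn2b values was not tested.

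Cdkn2a and Cdkn2b share a locus on chromosome 5, with 1 uncharacterised gene annotated between them, and are shown because one was at the floor and the other was counted in every library.
Cdkn2a, chr5:109107907-109108206, minus strand: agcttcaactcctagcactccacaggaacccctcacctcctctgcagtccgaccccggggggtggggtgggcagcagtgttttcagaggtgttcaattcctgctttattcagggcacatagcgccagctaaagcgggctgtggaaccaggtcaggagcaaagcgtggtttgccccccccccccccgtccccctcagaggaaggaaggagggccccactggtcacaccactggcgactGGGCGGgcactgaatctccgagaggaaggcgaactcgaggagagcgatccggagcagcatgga
Cdkn2b, chr5:109134806-109135105, minus strand: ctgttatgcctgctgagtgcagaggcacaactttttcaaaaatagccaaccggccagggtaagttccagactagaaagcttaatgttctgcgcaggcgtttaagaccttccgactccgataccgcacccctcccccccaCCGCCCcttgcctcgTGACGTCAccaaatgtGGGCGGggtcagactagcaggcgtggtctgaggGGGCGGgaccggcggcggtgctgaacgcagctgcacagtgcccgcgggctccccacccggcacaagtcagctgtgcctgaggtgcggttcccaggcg
The Cdkn2a start lies 6492 bases inside the annotated span of the gene, so an upstream start of that gene is not covered by this window. It held 13 CpG dinucleotides and 1 GC box. The Cdkn2b window held 21 CpG dinucleotides, 3 GC boxes and 1 TGACGTCA, the cyclic AMP response element.

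Cdkn2c encodes p18, an Ink4 inhibitor also known from lymphocyte development. Its level was 1.26, 0.482, 0.896, 1.26 and 0.769 CPM in young 1 to 5 and 1.27, 3.05, 2.49 and 1.08 CPM in old 1 to 4. Old 2 and old 3 stood clear of all young livers, old 1 lay beside the highest young livers, and old 4 lay among the young. Means were 0.934 ± 0.334 and 1.97 ± 0.951 CPM, from 13 to 54 counts per library. The log2 fold change was 1.06 ± 0.39 (95% interval 0.20 to 1.92, unadjusted p = 0.0203), and edgeR's adjusted p of 0.224 did not pass; it was 0.129 by DESeq2. The exact two-sided permutation p was 0.0476. The summed T and natural killer cell markers were 29.2, 21.6, 51.1 and 14.9 CPM in old 1 to 4 and at most 11.7 CPM at the younger age, and their part in the Cdkn2c values was not tested.

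Cdkn2d encodes p19, the Ink4 inhibitor that in cycling cells peaks in S phase. Its level was 1.30, 1.37, 0.849, 1.60 and 1.38 CPM in young 1 to 5 and 1.55, 1.73, 1.66 and 1.04 CPM in old 1 to 4. Old 2 and old 3 lay just above the highest young liver, and old 4 lay below 4 of the 5 young livers. The log2 fold change was 0.20 ± 0.25 (95% interval -0.36 to 0.75, edgeR adjusted p = 0.727).

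**Figure D2:**
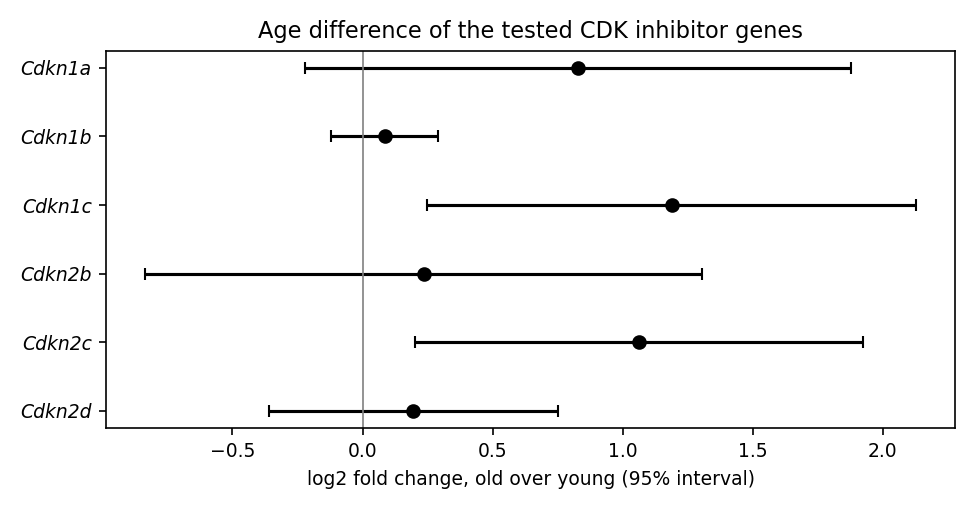
Log2 fold change, old over young, of the 6 tested CDK inhibitor genes (x axis, points) with 95% intervals from the edgeR fit (bars). Only the intervals of Cdkn1c, from 0.25 to 2.13, and Cdkn2c, from 0.20 to 1.92, lie above 0, before adjustment over all genes.

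The inhibitor genes differed in how steady they were between livers of the same age. The SD of log2(CPM + 0.5) around the age means was 0.83 for Cdkn1a, 0.72 for Cdkn2b, 0.61 for Cdkn1c, 0.46 for Cdkn2c, 0.24 for Cdkn2d and 0.11 for Cdkn1b. Among the 500 tested genes nearest to each in mean CPM, Cdkn1a stood at percentile 98.8, Cdkn2b at 91.6, Cdkn1c at 86.6, Cdkn2c at 70.3, Cdkn2d at 14.8 and Cdkn1b at 10.4. Among young livers alone the highest Cdkn1a level was 4.55 times the lowest, and the highest Cdkn2b level 4.89 times the lowest, whereas for Cdkn1b this ratio was 1.22. Young 3 had the lowest level of all 9 livers for Cdkn1a, Cdkn1b, Cdkn1c and Cdkn2d and the highest young level for Cdkn2b, and lay at the young median for Cdkn2c.

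**Figure D3:**
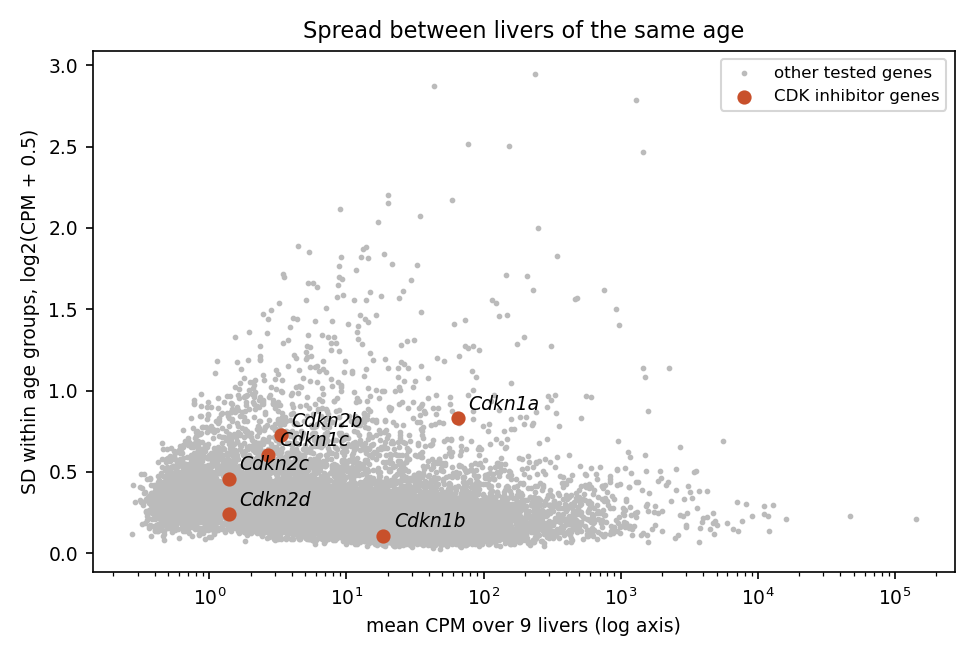
Spread between livers of the same age (y axis, SD of log2(CPM + 0.5) around the age means) against mean CPM over the 9 livers (x axis, log scale) for 12778 tested genes, with the 6 tested CDK inhibitor genes named. Cdkn1a, at 0.83, stands high for its level, and Cdkn1b, at 0.11, lies near the lower edge.

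The genes most like Cdkn1a over the 9 livers were sought by Pearson correlation of log2(CPM + 0.5), as a description only, since the points share libraries, depth and age group. Among 11600 genes that averaged 1 CPM or more these were Maob (r = 0.95), Aldh1a1 (0.94) and Ing1 (0.93). Among the genes of the regulator and pathway lists they were Fkbp5 (0.92), a glucocorticoid-induced cochaperone gene, and the p53 targets Ccng1 (0.90), for cyclin G1, and Aen (0.89), for an apoptosis-enhancing nuclease. Over all 21 tested p53 targets r ran from -0.50 to 0.90 with a median of 0.17. Of these 21, 4 exceeded 0.8, as did 0.905% of the 11600 genes. Over the 10 glucocorticoid and fasting response genes r ran from -0.83 (Sgk1) to 0.92 (Fkbp5), and the next highest value was 0.44.

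The low livers were shared by 3 p53 targets, Ccng1 and Aen, which are named for their likeness to Cdkn1a, and Mdm2, but the high ones were not. Ccng1 lay at 42.8, 93.8, 33.4, 61.3 and 68.0 CPM in young 1 to 5 and at 72.7, 87.3, 53.5 and 66.5 CPM in old 1 to 4. Aen stood at 19.8, 24.7, 13.7, 20.5 and 26.7 CPM in the same young livers and at 39.6, 31.8, 20.4 and 28.6 CPM in the old. Mdm2, which encodes the ligase that degrades p53 and is itself a p53 target, stood at 19.6, 38.3, 17.0, 30.1 and 32.5 CPM and, in the old, at 33.1, 34.3, 21.5 and 26.0 CPM. Young 1 and young 3 were the lowest 2 livers for Cdkn1a, Ccng1, Aen and Mdm2 alike. The highest liver was old 2 for Cdkn1a, old 1 for Aen and young 2 for Ccng1 and Mdm2. The log2 fold changes with age were 0.23 for Ccng1 (edgeR adjusted p = 0.712), 0.51 for Aen (0.287) and 0.06 for Mdm2 (0.921).

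**Figure D4:**
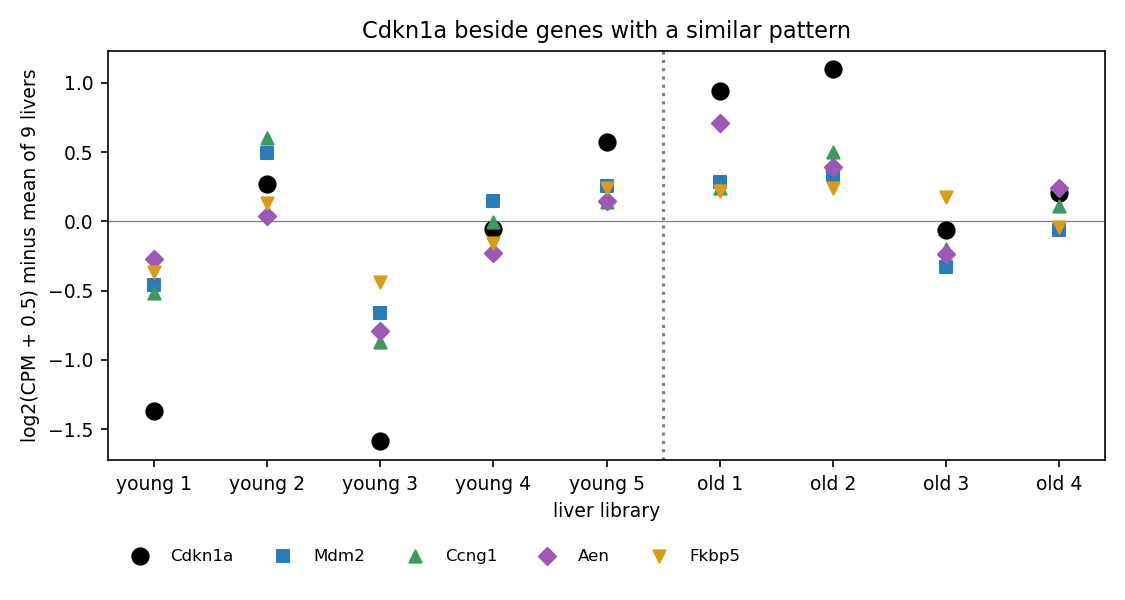
Log2(CPM + 0.5) of Cdkn1a, Mdm2, Ccng1, Aen and Fkbp5 in each of the 9 livers (x axis), each gene relative to its own mean over the livers (y axis). In young 1 and young 3 all 5 genes lie below their means, Cdkn1a farthest, at 21.2 and 18.2 CPM.

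The other tested inhibitors had other neighbours. The most like Cdkn1b were Vwce (r = 0.95), Eef2 (0.92) and Cercam (0.90). Those of Cdkn1c were Gcdh (0.95), Adh1 (0.95) and Zhx2 (0.95). Cdkn2b was most like Tmsb10 (0.95), Specc1 (0.95) and Btg3 (0.93), Cdkn2c most like Plcl2 (0.95), Jak3 (0.94) and Polr1a (0.94), and Cdkn2d most like Slc3a2 (0.90), Rps4y2 (0.88) and Usp27x (0.86). These are the highest of 11600 values for each member, and nothing was tested with them. Among listed genes, Cdkn2c was most like the stress gene Gadd45a (0.86) and Cdkn2b most like the mitotic cyclin gene Ccnb1 (0.83).

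The genes around the inhibitors were also read from the fit over all genes. In 10 lists of their kinase targets, regulators and senescence genes, 115 genes were tested. By edgeR 0 were called, and 20 (17.4%) had an unadjusted p under 0.05, against 15.9% of all genes tested. The ages did not overlap in CPM for 6 of the 115 (5.22%), against 6.53% of all genes tested. These shares of all genes are also the background for the single lists below. DESeq2 called 7, where it called 5.13% of all genes, and limma-voom 0. The 7 were Ccnd3, Gadd45a and Il1b, with positive log2 fold changes, and Chek1, Ddb2, Dbp and Nr1d1, with negative ones.

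Among the kinases and cyclins that the inhibitors act on, 0 of 11 tested genes passed edgeR's test, 3 had an unadjusted p under 0.05 and 1 passed by DESeq2. Ccnd3, for the cyclin D3 partner of Cdk4 and Cdk6, averaged 11.6 ± 1.18 CPM at 6 months and 16.6 ± 3.60 CPM at 24 months (log2 0.52, edgeR adjusted p = 0.129). Ccnd1, for cyclin D1, the main D cyclin of dividing hepatocytes, averaged 70.8 ± 21.1 and 32.4 ± 20.5 CPM (log2 -1.13, adjusted p = 0.239). It was lowest in old 1 and old 4, at 18.1 and 13.4 CPM, while old 2 lay among the young livers at 57.1 CPM. Cdk4, the shared target of all Ink4 inhibitors, averaged 33.0 ± 1.90 and 37.9 ± 3.54 CPM (adjusted p = 0.305). For Cdk6 the log2 fold change was 0.16 and for Cdk2, the main Cip/Kip target, -0.04 (adjusted p = 0.762 and 0.946).

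The retinoblastoma family was listed with the E2F factors and their partner genes. Of the 10 tested genes, 0 had an edgeR p under 0.05 before or after adjustment and 0 passed by DESeq2 or limma-voom. Their median log2 fold change was -0.03. Rb1 averaged 19.2 ± 2.67 and 21.8 ± 7.21 CPM (log2 0.18, edgeR adjusted p = 0.706), and Rbl2, for the p130 protein of quiescent cells, at 45.6 ± 5.55 and 40.3 ± 8.24 CPM (adjusted p = 0.569).

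Of the 7 genes of p27 turnover, 0 had an edgeR p under 0.05 before or after adjustment or passed by DESeq2 or limma-voom. Skp2, which marks p27 for degradation, averaged 0.947 ± 0.298 and 0.782 ± 0.299 CPM (edgeR adjusted p = 0.716). The scaffold gene Cul1 had a log2 fold change of -0.15 and Ubac1, part of another p27 ligase, one of 0.17.

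Polycomb proteins are known to keep the Cdkn2a locus silent. Of 11 tested genes listed as Polycomb-linked regulators of the Ink4 genes, 0 passed by edgeR, DESeq2 or limma-voom. Of these 11, 2 had an unadjusted edgeR p under 0.05. Ring1 averaged 19.3 ± 1.25 and 22.5 ± 1.01 CPM with no overlap between the ages (log2 0.22, edgeR adjusted p = 0.228), against 6.53% of all tested genes without overlap. Ezh1 averaged 18.7 ± 2.85 and 14.9 ± 1.87 CPM (adjusted p = 0.272), and Bmi1, the classical Cdkn2a repressor, 11.9 ± 1.05 and 11.2 ± 1.72 CPM (adjusted p = 0.762).

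Of the 8 genes of p53 and its regulators and the 21 tested p53 targets, 0 passed by edgeR, while DESeq2 passed Chek1 of the former and Gadd45a and Ddb2 of the latter. Chek1, the checkpoint kinase gene, averaged 3.08 ± 1.00 and 1.57 ± 0.393 CPM with all old livers below all young ones (log2 -0.98, edgeR adjusted p = 0.128). For Atr, the gene of the kinase upstream of it, the log2 fold change was -0.32 (adjusted p = 0.396). Gadd45a averaged 9.03 ± 0.981 and 14.5 ± 3.70 CPM with all old livers above all young ones (log2 0.68, adjusted p = 0.0955). Ddb2, for a sensor of ultraviolet damage, averaged 8.06 ± 1.07 and 5.59 ± 0.824 CPM, again without overlap (log2 -0.53, adjusted p = 0.118). The p53 targets therefore included genes with differences in both directions, none past edgeR's threshold.

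Among 19 tested genes listed as transcriptional regulators of the Cip/Kip genes, clock genes among them, 0 passed by edgeR and 2 by DESeq2. An action of the listed genes on the inhibitors was not tested. The clock genes Dbp and Nr1d1 had the smallest p. Dbp ran from 4.08 to 19.3 CPM at 6 months and from 1.09 to 3.85 CPM at 24 months (log2 -1.85, edgeR adjusted p = 0.122). Nr1d1, whose protein REV-ERB alpha is known in mouse liver to repress Cdkn1a, lay at 38.4, 55.4, 33.3, 49.9 and 51.5 CPM in young 1 to 5 and at 22.3, 8.74, 18.7 and 36.3 CPM in old 1 to 4 (log2 -1.08, adjusted p = 0.168). Old 2 had the lowest Nr1d1 level and the highest Cdkn1a level. Young 1 and young 3, with the lowest Cdkn1a levels, had the lowest Nr1d1 levels of the young livers. The Pearson correlation of Nr1d1 with Cdkn1a was -0.36 over all livers and 0.11 within the age groups. A part of Nr1d1 in the Cdkn1a values was not tested. The time of day of collection is not given in the labels, and its part in the Dbp, Nr1d1 and Cdkn1a values was not tested. Of 10 glucocorticoid and fasting response genes 0 passed by edgeR, DESeq2 or limma-voom, and 2 had an unadjusted edgeR p under 0.05. These were Pdk4, a switch towards fat oxidation (28.9 ± 6.32 and 45.2 ± 13.5 CPM, edgeR adjusted p = 0.194), and the kinase gene Sgk1 (64.3 ± 42.1 and 21.3 ± 11.8 CPM, adjusted p = 0.229). Sgk1 was highest in young 1 and young 3, at 110 and 107 CPM, the livers lowest in Cdkn1a.

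Genes of the senescence-associated secretory programme had no common direction. Of 13 tested genes 0 passed by edgeR, 5 had an unadjusted p under 0.05 (3 higher, 2 lower) and DESeq2 passed 1. Il1b, for interleukin 1 beta, averaged 1.67 ± 0.459 and 4.28 ± 1.94 CPM without overlap (log2 1.34, edgeR adjusted p = 0.0844). It was highest in old 3 at 6.88 CPM, the liver with the highest neutrophil and macrophage marker sums. The part of these markers in the Il1b values was not tested. Il1a averaged 10.3 ± 2.59 and 6.12 ± 2.21 CPM (log2 -0.77, adjusted p = 0.176). Il6 had 1 count in the 9 libraries and Areg 0. Of 5 tested structural and proliferation genes linked to senescence 0 had an edgeR p under 0.05 before or after adjustment, or passed by DESeq2 or limma-voom. Lmnb1, whose lamin B1 is lost from senescent cells, averaged 6.16 ± 0.670 and 5.61 ± 0.869 CPM (edgeR adjusted p = 0.671), and Hmgb1 at 31.1 ± 2.02 and 35.5 ± 4.71 CPM (adjusted p = 0.394). Mki67, the proliferation marker, lay at 1.40 to 3.11 CPM in old 1, 2 and 4 and at 14.3 CPM in old 3, against 1.60 to 4.06 CPM in young livers.

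**Figure D5:**
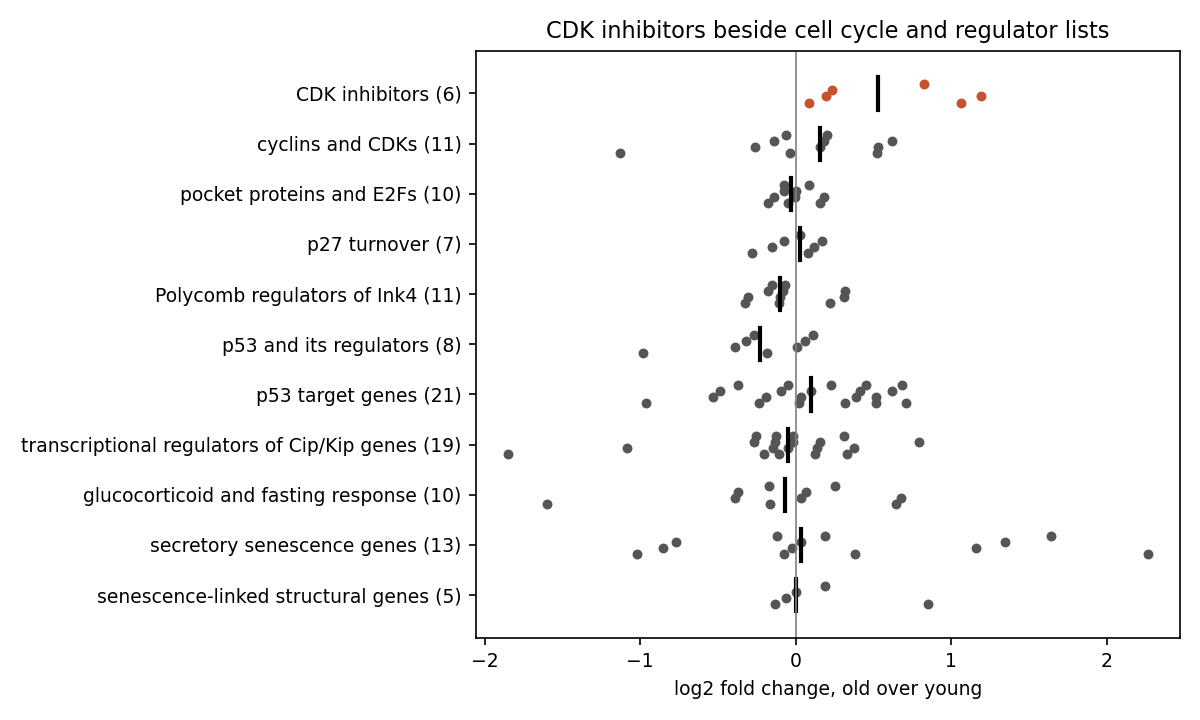
Log2 fold change, old over young (x axis), of each tested gene in the CDK inhibitor list and 10 related lists, with the number of tested genes in brackets and the list median as a black bar. The 6 CDK inhibitors lie between 0.08 and 1.19 with a median of 0.53, and none of the 121 genes shown passed edgeR's threshold.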

How the data were processed

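The deposited table holds unnormalized whole-number read counts, 1 row per symbol, for liver poly(A) RNA of 9 rats. Libraries were made with a TruSeq kit, per the labels' protocols. That kit does not mark strand, so reads of a gene and of an overlapping antisense gene cannot be told apart. BWA is named as a tool in the submitters' processing notes. The version, genome build, annotation, counting tool and handling of reads matching several genes are not given in the sources used here.

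Genes were kept with edgeR's filterByExpr (minimum count 10, total 15), which left 12778 of 18071 genes with any count. TMM scaling and a robust quasi-likelihood fit (R 4.3.3, edgeR 4.0.16) compared old with young. P-values were adjusted by Benjamini-Hochberg over all genes tested, and 0.05 was the threshold. SE and 95% intervals were derived from the F statistic and its degrees of freedom. CPM uses TMM-scaled library sizes. The exact permutation tests are two-sided, on log2(CPM + 0.5). DESeq2 1.42.0 and limma 3.58.1 were alternatives, and the edgeR step was tested on simulated data. Figures used matplotlib 3.10.9.

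Members, lists, alternatives and tests were chosen with earlier results of these data known. Named genes are all members, the 2 smallest p-values and any called gene of each list, 11 fixed genes and the 3 genes most like each member; Ccnb1, Il6, Areg and the further genes called by DESeq2 or at 0 in a marker list were named after their values were seen. Levels are not per transcript length, so they were not compared between genes. All 7 members matched RefSeq symbols.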

Additional observations from a re-analysis of the deposited data

Results flagged for a closer look

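Among 70 groups of values (35 genes at 2 ages), 4 had a liver far from the others of its age, about the number that chance gives at 1 in 20. For Cdkn2a this was young 2, at 0.0371 CPM, which is its single count against 0 in the other 4 young libraries. For Rbl2, the p130 gene, young 2 lay at 55.2 CPM with the next young liver at 45.9 CPM. For the clock gene Dbp, young 2 lay at 19.3 CPM with the next young liver at 8.12 CPM. For the proliferation gene Mki67, old 3 lay at 14.3 CPM with the next old liver at 3.11 CPM.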

How the results depend on the processing

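The count of inhibitor genes called was 0 in all 20 alternatives. Cdkn1b had a log2 fold change of -0.086 with library totals only, where the median of all genes was -0.17. Cdkn2b had -0.18 without old 3 and -0.028 without old 3 and old 4 together. Over all 20 alternatives Cdkn1a ran from 0.62 to 2.03, Cdkn1c from 0.97 to 1.60 and Cdkn2c from 0.65 to 1.27. Cdkn2d ran from 0.01 to 0.34 over the same 20, Cdkn1b from -0.086 to 0.20 and Cdkn2b from -0.18 to 0.70. With each library left out in turn Cdkn2b ran from -0.18 to 0.55, Cdkn2a (unfiltered fit) from 2.73 to 4.35 and the other members stayed above 0, Cdkn1a between 0.62 and 1.11, Cdkn1c between 0.97 and 1.56 and Cdkn2c between 0.78 and 1.27, and Cdkn1b stayed between 0.05 and 0.12.

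Of all genes, 386 were called higher and 269 lower by DESeq2, 41 and 27 by limma-voom, 27 and 16 with a replicate block, and 0 and 0 with young 2 to 5 left out. Lower genes numbered 208 with library totals only and 26 without old 3 and 4 together. Leaving out 1 library gave 20 to 115 higher and 10 to 86 lower genes. Same-numbered livers correlated at -0.11, 0.08, 0.32 and -0.18 in their deviations from the age means, so the numbers were not taken to pair animals, and the block called 0 inhibitor genes; of the 4 old livers 1 correlated best with its own number.

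Reversed log2 fold changes among other named genes, none of them past the threshold in either fit, were as follows. With library totals only they were -0.012 for Rb1, -0.00018 for Ubac1, -1.9e-05 for Cdk6 and -0.12 for Mdm2. Without old 3 and 4 together they were -0.00053 for Ubac1, -0.10 for Mki67, 0.12 for Cdk2 and -0.22 for Cdk6, and with young 2 to 5 left out -0.10 for Cdk6. Mki67 gave -0.36 without old 3 and up to 1.17 with 1 other library left out. Cdk2 gave 0.069 with the block and -0.18 to 0.066 with 1 library left out. Mdm2 gave -0.071 (without young 3) to 0.21 with 1 library left out.

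Beside the 7 DESeq2 calls, 2 of the other named genes passed in another fit: Ddb2 with library totals only (log2 -0.71, edgeR adjusted p = 0.0458) and Sgk1 with the replicate block (log2 -1.83, edgeR adjusted p = 0.0378).

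Halving old 1 called 83 higher and 45 lower genes. Depth limits Cdkn2a, whose values are 0 to 4 counts.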

Other observations

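Cdkn1a was also set against Mdm2 within each liver, a ratio chosen after the values were seen and given without a test. The CPM of Cdkn1a per CPM of Mdm2 was 1.08, 1.75, 1.07, 1.78 and 2.55 in young 1 to 5 and 3.25, 3.49, 2.48 and 2.47 in old 1 to 4. Old 1 and old 2 lay above all young livers, and old 3 and old 4 lay just below young 5 and above the other 4 young livers. Both values are on the CPM scale and not per transcript length, so the ratio compares livers and not the amounts of these transcripts.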
